A study of Mus musculus with 14 samples.

Results

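Haematopoietic stem cells (HSCs) give rise to all blood lineages and carry low levels of transcripts for regulators that later commit cells to one lineage. Measured here were 10 such regulators: the myeloid factors Spi1 (PU.1), Cebpa, Cebpb, Cebpd, Gfi1 and Irf8, and the lymphoid or E protein pathway factors Ikzf1 (Ikaros), Ikzf2 (Helios), Id2 and Tcf4 (E2-2). They were taken by gene name from 48714 gene labels shared by all libraries, as the label equal to the name or the name with a copy number, and each of the 10 was found. The bone marrow HSCs came from C57BL/6 mice and were sorted into [Ca2+]high (calcium-high) and [Ca2+]low (calcium-low) populations. Each population had 7 libraries, numbered 1 to 7 in the labels, and a library was made from 100 cells. The labels give no age, genotype, treatment or further sort gate, and they do not say whether libraries came from separate animals, so the p-values cover only how much these samples vary.

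The factors act through a few shared mechanisms. PU.1 opens regulatory DNA of myeloid and B cell genes, and C/EBP proteins bind beside it to drive granulocyte and monocyte genes, with Gfi1 and Irf8 favouring the neutrophil and the monocyte or dendritic cell branch. Ikaros family zinc-finger proteins act in lymphoid priming, while E proteins such as Tcf4 bind DNA as dimers and Id2, which has no DNA-binding region, captures E proteins and keeps them off DNA.

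Id2 was higher in calcium-high HSCs in 6 of 7 pairs of libraries with the same number, with a mean of 1.54 ± 0.657 RPKM (reads per kilobase per M reads, a level corrected for gene length and depth) across calcium-high libraries, against 0.763 ± 0.248 RPKM across calcium-low libraries (SD, n = 7 each). The ratio of means was 2.02 for Id2 and 1.98 for Irf8, which was too low to be tested and whose mean rests on 1 library. Ikzf2 was lower in calcium-high HSCs in every pair, and Cebpa and Ikzf1 in 6 of 7 pairs. Of all genes tested, 3.02% were lower in every pair, 12.4% lower in 6 or more and 9.14% higher in 6 or more. The test took genes that averaged at least 1 RPKM over all libraries; Id2 and Gfi1 reached it through calcium-high libraries, and Cebpa through calcium-low libraries, the other group averaging below it in each. None of the 8 factors tested passed a Benjamini-Hochberg adjusted p under 0.05 by limma on log2(RPKM + 1), with or without the replicate number as a block. Across all 9921 genes tested that fit called 0% without the block and 0.917% with it. Before adjustment limma put 2 factors, Id2 and Ikzf2, below the 0.05 threshold without the block, as it did 6.74% of all genes. More factors were called in fits of the deeper libraries alone and in fits with library quality weights, except in replicates 1 to 3. The share of all genes called was higher there too. Limma-voom on reads recovered from the RPKM steps, with library quality weights, called 2 factors and 7.11% of all genes. With the block it called 3 factors and 8.45%. In replicates 4 to 7 alone limma called 1 factor higher and 1 lower, where it called 6.36% of all genes higher and 1.78% lower, and 2 factors with the block, where it called 6.61% of all genes. Limma-voom called 3 factors in replicates 4 to 7, beside 10.5% of all genes, and 3 without calcium-high replicates 5 and 6, beside 19.8%. In replicates 1 to 3 alone, limma and limma-voom each called 0 factors and 0 of all genes.

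Promoter sequence is shown for Id2 and Cebpa, the factors that limma called in replicates 4 to 7. It is also shown for Cebpb, which like Id2 and Irf8 was highest in calcium-high replicate 5. Each run is the 250 bases before the RefSeq start site (GRCm38.p6), 5′ to 3′ on the gene's strand. Promoters of 6 of the 10 factors were searched, and Tcf4 was not looked up. Capitals mark matches on either strand to the E-box CANNTG, bound by E proteins, and to TGACG, the core of the site bound by CREB, a factor on which calcium signalling acts. The C/EBP motif TTNNGNAA, the PU.1 motif GAGGAA and the Ikaros motif TGGGAA were searched too and had no match in these windows.
Id2, chr12:25096093-25096342, minus strand: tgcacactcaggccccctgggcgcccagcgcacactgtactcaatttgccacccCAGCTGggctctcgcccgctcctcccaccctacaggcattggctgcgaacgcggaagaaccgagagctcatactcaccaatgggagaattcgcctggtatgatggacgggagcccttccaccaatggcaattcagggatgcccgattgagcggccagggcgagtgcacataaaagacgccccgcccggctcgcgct
Cebpa, chr7:35119043-35119292, plus strand: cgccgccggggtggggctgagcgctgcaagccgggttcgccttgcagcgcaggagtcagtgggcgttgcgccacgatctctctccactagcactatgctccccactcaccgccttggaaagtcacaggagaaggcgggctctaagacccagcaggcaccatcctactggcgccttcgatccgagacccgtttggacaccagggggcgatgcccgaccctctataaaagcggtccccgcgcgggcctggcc
Cebpb, chr2:167688665-167688914, plus strand: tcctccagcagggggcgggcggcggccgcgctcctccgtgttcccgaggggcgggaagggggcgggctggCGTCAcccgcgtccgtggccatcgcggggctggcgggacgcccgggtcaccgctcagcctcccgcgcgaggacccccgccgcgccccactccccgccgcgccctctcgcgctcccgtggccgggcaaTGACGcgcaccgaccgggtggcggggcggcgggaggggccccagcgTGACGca
The Id2 window held 1 E-box and the Cebpb window 3 CREB cores, with no overlap between motifs. None of the motifs was found in the Cebpa window. Irf8 had 2 windows, not shown, with 0 CREB cores in each, and the second held 2 E-boxes and 1 Ikaros match. Of the windows searched for these 6 factors, only that of Cebpb held a CREB core. Among 32851 promoter windows of this length, 66.2% held the E-box, 36.8% the C/EBP motif, 23.3% the PU.1 motif, 21.6% the Ikaros motif and 17.8% the CREB core. Guanine and cytosine made up 62.8% of the Id2 window, 66.4% of the Cebpa window and 81.6% of the Cebpb window, against a median of 52.4% over all windows. These matches describe the letters in the windows, and binding was not measured.

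The libraries differed in depth and in markers of other cell types, and the part of either in the factors' levels was not tested. The listed genes held 3575282 to 7387840 reads for replicates 1 to 3, against 8280756 to 10296347 for replicates 4 to 7, a split that the labels do not explain. All 12 genes of the HSC marker list, among them Kit, Procr and Mecom, averaged 1 RPKM or more over all libraries. Their summed levels were 191 to 365 RPKM in calcium-high libraries, against 186 to 294 RPKM in calcium-low libraries. The list and the sums include Cd34 and Cd48, which progenitors carry, so their detection does not mark HSCs. Cd48 was at 1.05 ± 0.90 RPKM in calcium-high HSCs, against 1.54 ± 0.62 RPKM in calcium-low HSCs. With the block limma called 4 of the 12: the HSC markers Procr, Slamf1 and Fgd5 higher in calcium-high HSCs, and Cd34, a marker gained by progenitors, lower at 22.6 ± 6.84 RPKM, against 45.0 ± 12.8 RPKM in calcium-low HSCs. Their part in the differences of the factors was not tested. Of 9 neutrophil markers 7 were highest in calcium-low replicate 3, which summed to 766 RPKM, against 6.92 RPKM or less in each other library. Mmp8, of the same list, was at 0 there. Of 8 erythroid markers 6 were highest in calcium-low replicate 3 too, which summed to 348 RPKM, against 229 RPKM or less in each other library. Of 8 monocyte and dendritic cell markers 4 were highest in calcium-high replicate 5, which summed to 40.4 RPKM; calcium-high replicate 6 summed to 14 RPKM and the other 12 libraries to 0.0927 to 3.95 RPKM, with Siglech listed at 0 in both of those calcium-high libraries. Of 8 B and T cell markers 7 averaged less than 1 RPKM, and of these Cd3e, Cd3g and Ms4a1 were listed at 0 in all libraries. The other, Nkg7, was at 9.7 ± 4.9 RPKM in calcium-high HSCs, against 19.7 ± 7.2 RPKM in calcium-low HSCs. It was lower in calcium-high in 7 of 7 pairs, as were 3.02% of all genes (limma adjusted p = 0.0514 with the block). Limma-voom called Nkg7 lower (limma-voom adjusted p = 0.00266), as it did 2.61% of all genes. Y-linked genes held 1298 to 1638 reads in replicates 1 and 2 of both groups and 0 to 4 reads elsewhere.

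The factors spanned a wide range of levels. Ikzf1 averaged 11.8 ± 2.62 RPKM over all 14 libraries (SD), followed by Spi1 at 7.65 ± 2.37, Ikzf2 at 5.52 ± 0.765, Cebpb at 3.50 ± 1.96 and Tcf4 at 2.84 ± 0.347 RPKM. Below these lay Cebpa at 1.21 ± 0.895, Id2 at 1.15 ± 0.625, Gfi1 at 1.05 ± 0.428, Irf8 at 0.956 ± 1.17 and Cebpd at 0.167 ± 0.159 RPKM. Each factor's range overlapped that of the next in this order. Tcf4 nevertheless exceeded Cebpa in 14 of 14 libraries and Ikzf1 exceeded Spi1 in 13, while Cebpa exceeded Id2 in 6 and Id2 exceeded Gfi1 in 6. Irf8 and Cebpd averaged less than 1 RPKM and were not among the genes tested. Without the filter on low values both were tested and neither passed.

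**Figure D1:**
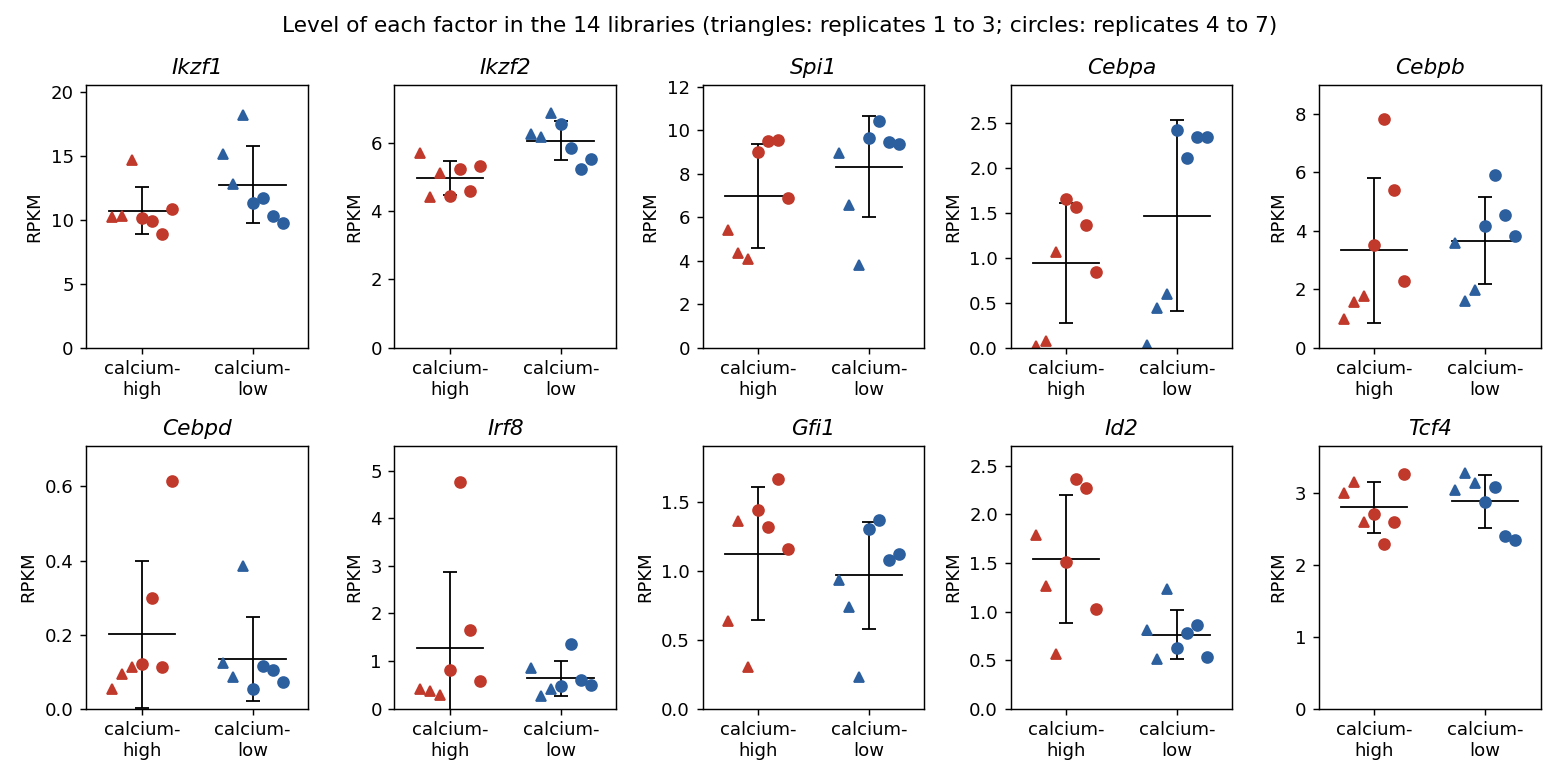
Level of each factor in RPKM, one panel per factor with its own axis from 0, calcium-high libraries at left and calcium-low libraries at right. Points are libraries (triangles replicates 1 to 3, circles replicates 4 to 7) and bars show mean and SD (n = 7 each), cut at 0 where the SD exceeds the mean. In all panels the groups overlap; Id2 lies highest in calcium-high replicates 5 and 6 at 2.37 and 2.28 RPKM.

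Spi1 encodes PU.1, the factor required for myeloid and early lymphoid cells. It lies on chromosome 2 (91082390 to 91115756, plus strand; GRCm38 coordinates are used throughout). In calcium-high libraries its lowest, median and highest levels were 4.09, 6.91 and 9.55 RPKM, against 3.81, 9.35 and 10.4 RPKM in calcium-low libraries. The groups overlapped over most of their range, and the lowest values of both came from replicates 1 to 3. Those averaged 4.63 ± 0.702 RPKM in calcium-high HSCs, against 6.45 ± 2.58 RPKM in calcium-low HSCs (SD, n = 3 each). For replicates 4 to 7 the mean was 8.74 ± 1.24 RPKM in calcium-high HSCs, against 9.72 ± 0.478 RPKM in calcium-low HSCs (n = 4 each). Spi1 was lower in calcium-high HSCs in 5 of 7 pairs. The log2 fold change was -0.23 (95% interval -0.69 to 0.22; limma adjusted p = 0.974), and the adjusted p was 0.338 with the replicate block. By limma-voom it was -0.27 (adjusted p = 0.335), and without calcium-high replicates 5 and 6 it was -0.67 (adjusted p = 0.0195), where that fit called Spi1 lower. Those libraries held the highest Spi1 levels of the calcium-high group, 9.5 and 9.6 RPKM, and were removed from 1 group only. That fit called 19.8% of all genes in either direction. The same removal by limma gave -0.42 (limma adjusted p = 0.675), and leaving out both libraries of replicates 5 and 6 with the block gave -0.30 (limma adjusted p = 0.267).

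Cebpa, the C/EBP factor that drives granulocyte and monocyte commitment, lies on chromosome 7 (35119293 to 35121928, plus strand). Calcium-high libraries had 0.0227, 1.06 and 1.65 RPKM as the lowest, median and highest level, against 0.0262, 2.11 and 2.42 RPKM in calcium-low libraries. The lowest levels of both groups were those of replicates 1 and 2. Replicates 1 and 2, the libraries with Y-linked reads, held 1 and 3 Cebpa reads in calcium-high HSCs, against 1 and 18 reads in calcium-low HSCs, whereas replicates 4 to 7 held 78 to 129 reads in calcium-high HSCs, against 192 to 229 in calcium-low HSCs. In replicates 4 to 7 the levels were 1.36 ± 0.365 RPKM in calcium-high libraries, against 2.30 ± 0.135 RPKM in calcium-low libraries (SD, n = 4 each), with the groups apart. There the log2 fold change was -0.50 (95% interval -0.76 to -0.24; limma adjusted p = 0.0280), and 3.1% of all genes lay lower in calcium-high without overlap in these 8 libraries. In replicates 1 to 3 the means were 0.389 ± 0.585 RPKM in calcium-high libraries, against 0.353 ± 0.294 RPKM in calcium-low libraries (n = 3 each), with a log2 fold change of -0.02 (95% interval -0.76 to 0.73; limma adjusted p = 0.984). Limma-voom over all libraries gave an adjusted p of 0.416, and of 0.0391 with the replicate block, where it called Cebpa lower. Cebpa was in these fits because its calcium-low mean of 1.47 RPKM lifted it over the filter, with a calcium-high mean of 0.942 RPKM. By limma the log2 fold change over all libraries was -0.29 (-0.94 to 0.35; limma adjusted p = 0.991), lower in 6 of 7 pairs, where 12.4% of all genes were lower in 6 or more. The difference between the 2 runs of replicates was itself tested as an interaction and did not pass (limma adjusted p = 0.296), nor did that of any other factor. As the cells were pooled, fewer cells with the transcript and less transcript per cell cannot be told apart, here or for the factors that follow.

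Cebpb, the C/EBP factor of emergency granulopoiesis and macrophages, lies on chromosome 2 (167688915 to 167690418, plus strand). Its lowest, median and highest levels were 0.985, 2.30 and 7.81 RPKM in calcium-high libraries, against 1.61, 3.81 and 5.92 RPKM in calcium-low libraries. The calcium-high libraries were more spread: replicates 5 and 6 held 7.81 and 5.40 RPKM, and the calcium-high value was the lower one in the other 5 pairs. Over all libraries the log2 fold change was -0.22 (95% interval -0.85 to 0.41; limma adjusted p = 0.992). Without calcium-high replicates 5 and 6, where monocyte markers were highest, it was -0.61 (-1.13 to -0.09; limma adjusted p = 0.606). By limma-voom the value over all libraries was -0.30 (adjusted p = 0.619). Without those 2 libraries it was -1.33 by limma-voom (adjusted p = 0.0142), in a fit that called Cebpb lower and 19.8% of all genes in either direction. Those are the highest Cebpb values of the calcium-high group, removed from 1 group only; leaving out both libraries of replicates 5 and 6 with the block gave -0.42 (limma adjusted p = 0.258) and called 0 factors.

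Cebpd, a C/EBP factor induced by inflammatory signals, lies on chromosome 16 (15887286 to 15891031, plus strand) and was close to the limit of counting. Its lowest, median and highest levels were 0.0529, 0.113 and 0.615 RPKM in calcium-high libraries (2 to 49 reads), against 0.0521, 0.105 and 0.385 RPKM in calcium-low libraries (3 to 20 reads). The high values were those of calcium-high replicates 7 and 5 and of calcium-low replicate 3, the library with the highest neutrophil and erythroid marker sums. Whether other cell types carried the Cebpd reads was not tested. Without the filter the log2 fold change was 0.07 (95% interval -0.12 to 0.27; limma adjusted p = 0.904).

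Gfi1, a zinc-finger repressor that favours neutrophils over monocytes and restrains HSC proliferation, lies on chromosome 5 (107716657 to 107726036, minus strand). It ranged from 0.301 over a median of 1.31 to 1.66 RPKM in calcium-high libraries, against 0.232, 1.08 and 1.37 RPKM in calcium-low libraries. Replicate 3 was the lowest library of both groups, and the groups overlapped. Its log2 fold change was 0.10 (95% interval -0.27 to 0.48; limma adjusted p = 0.995) and turned to -0.01 without calcium-low replicate 3.

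Irf8, which directs monocyte and dendritic cell fates, lies on chromosome 8 (120736358 to 120756694, plus strand). Calcium-high libraries had 0.280, 0.586 and 4.77 RPKM as the lowest, median and highest level, against 0.263, 0.502 and 1.37 RPKM in calcium-low libraries. The means of 1.27 ± 1.61 RPKM in calcium-high HSCs, against 0.641 ± 0.370 RPKM in calcium-low HSCs (SD, n = 7 each) rest on 1 library: calcium-high replicate 5 held 511 of the Irf8 reads, against 201 in calcium-high replicate 6, 162 in calcium-low replicate 5 and fewer in every other library. Calcium-high replicates 5 and 6 were the same libraries in which Ly6c2 reached 30.1 and 8.87 RPKM and F13a1, a monocyte gene, 6.13 and 3.16 RPKM, against at most 3.72 RPKM of Ly6c2 and 0.0903 RPKM of F13a1 in the other 12. Other markers of the same list, C1qa, Adgre1, Cd209a and Siglech, were highest in another library. C1qa was at 0.178 and 0.184 RPKM in calcium-high replicates 5 and 6, against up to 1.27 RPKM in the other 12. Whether monocytes or related cells were in these libraries, and their part in the Irf8, Cebpb and Id2 levels, was not tested. Without the filter the log2 fold change of Irf8 was 0.28 (95% interval -0.35 to 0.91; limma adjusted p = 0.896).

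**Figure D2:**
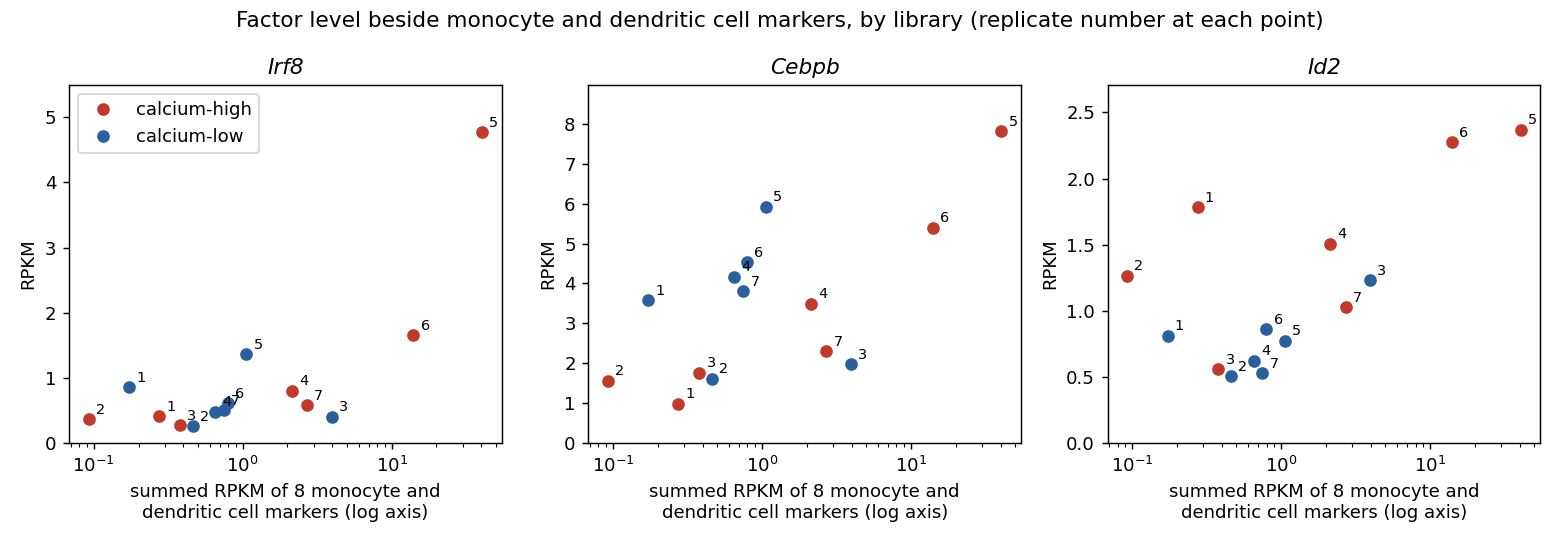
Level of Irf8, Cebpb and Id2 in RPKM (vertical axes) beside the summed RPKM of 8 monocyte and dendritic cell markers (horizontal log axis), one point per library with its replicate number. Calcium-high replicates 5 and 6 lie at the right, at marker sums of 40.4 and 14 RPKM, and hold the highest Id2 levels; Irf8 is highest in the same libraries, and Cebpb is highest in calcium-high replicate 5.

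Ikzf1, the Ikaros gene needed for lymphoid cells, lies on chromosome 11 (11685003 to 11772926, plus strand). It had the highest mean level of the 10 factors, with 8.91, 10.2 and 14.7 RPKM as the lowest, median and highest level in calcium-high libraries, against 9.73, 11.7 and 18.2 RPKM in calcium-low libraries. The highest library of each group was replicate 3, and the groups overlapped. Calcium-high was the lower one in 6 of 7 pairs, where 12.4% of all genes were lower in 6 or more. The log2 fold change was -0.22 (95% interval -0.51 to 0.08; limma adjusted p = 0.876), and the adjusted p was 0.312 with the replicate block.

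Ikzf2 encodes Helios, an Ikaros relative also found in regulatory T cells, and lies on chromosome 1 (69531214 to 69687245, minus strand). Its levels varied little: 4.41, 5.11 and 5.69 RPKM as the lowest, median and highest in calcium-high libraries, against 5.23, 6.17 and 6.87 RPKM in calcium-low libraries. The ranges overlapped between 5.23 and 5.69 RPKM, while within every one of the 7 pairs the calcium-high library was the lower one, as were 3.02% of all genes tested. The means were 4.97 ± 0.493 RPKM in calcium-high HSCs, against 6.06 ± 0.573 RPKM in calcium-low HSCs (SD, n = 7 each). Its log2 fold change was -0.24 (95% interval -0.44 to -0.05; limma adjusted p = 0.584), and the adjusted p was 0.215 with the replicate block. It was -0.30 in replicates 1 to 3 and -0.20 in replicates 4 to 7 (limma adjusted p = 0.421 and 0.186). On the recovered reads, limma-voom called Ikzf2 lower (adjusted p = 0.0248), as it did 2.61% of all genes. Without calcium-high replicates 5 and 6 that fit gave -0.13 (adjusted p = 0.320) and did not call it.

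Id2, the E protein antagonist that holds back B cell fate and favours innate lymphoid and dendritic cells, lies on chromosome 12 (25093799 to 25097140, minus strand); the promoter window shown above holds 1 E-box, and its RefSeq start site falls inside these limits. Calcium-high libraries had 0.559, 1.51 and 2.37 RPKM as the lowest, median and highest level, against 0.507, 0.775 and 1.23 RPKM in calcium-low libraries. The lowest calcium-high library and the highest calcium-low library were both replicate 3, so that Id2 was higher in calcium-high HSCs in 6 of 7 pairs and lower in pair 3; 9.14% of all genes were higher in 6 or more pairs. The reads behind these levels numbered 17 to 102 in calcium-high and 10 to 37 in calcium-low libraries. Over all libraries the log2 fold change was 0.50 (95% interval 0.15 to 0.84; limma adjusted p = 0.443), and the adjusted p was 0.170 with the replicate block.

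Id2 passed in several other fits, in which it was tested because its calcium-high mean lifted it over the filter; with no filter its adjusted p was 0.391, and 0.277 with the block (limma). Without both libraries of replicate 3 the log2 fold change was 0.66 (limma adjusted p = 0.0240, in a fit that called 0.786% of all genes higher), with the block 0.66 as well (limma adjusted p = 0.00526, beside 1.65% of all genes higher), and 0.61 without calcium-high replicate 3 alone (limma adjusted p = 0.0548). The fits without replicate 3 and those of replicates 4 to 7 leave out pair 3, the only pair in which Id2 was lower in calcium-high HSCs. When any other pair was left out with the block, Id2 did not pass (limma adjusted p = 0.254 to 0.357). In replicates 4 to 7 it averaged 1.80 ± 0.641 RPKM in calcium-high libraries, against 0.697 ± 0.148 RPKM in calcium-low libraries (SD, n = 4 each), without overlap, as for 13.8% of all genes in the higher direction. The log2 fold change there was 0.69 (95% interval 0.35 to 1.04; limma adjusted p = 0.0227), against 0.23 (-0.36 to 0.82; limma adjusted p = 0.660) in replicates 1 to 3. By limma-voom on the recovered reads, which adds no pseudocount of 1 RPKM, it was 1.22 (adjusted p = 0.00675), in a fit that called 4.5% of all genes higher. The 2 highest Id2 levels, 2.37 and 2.28 RPKM, were those of calcium-high replicates 5 and 6. Without these libraries the log2 fold change was 0.32 (95% interval -0.02 to 0.66, limma adjusted p = 0.648). By limma-voom it was then 1.04 (adjusted p = 0.0205), in a fit that called 19.8% of all genes in either direction. Leaving out both libraries of replicates 5 and 6 with the block gave 0.35 (limma adjusted p = 0.353).

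Tcf4 encodes the E protein E2-2, a regulator of plasmacytoid dendritic cells and B cells, and lies on chromosome 18. Its lowest, median and highest levels were 2.28, 2.70 and 3.25 RPKM in calcium-high libraries, against 2.35, 3.04 and 3.27 RPKM in calcium-low libraries. The 2 groups covered nearly the same range. On the log2 scale the difference was -0.03 with a 95% interval of -0.23 to 0.17 (limma adjusted p = 0.998), so the interval leaves room for a difference of about that size in either direction.

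**Figure D3:**
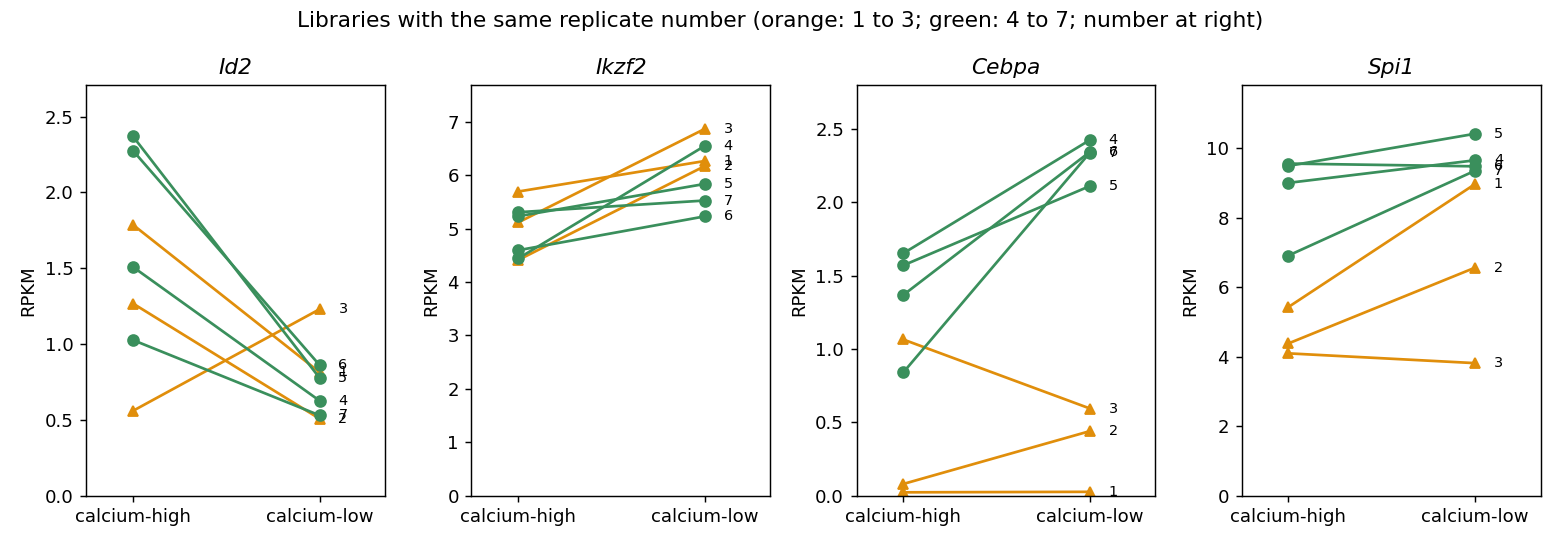
Level in RPKM of Id2, Ikzf2, Cebpa and Spi1 in libraries with the same replicate number, calcium-high at left and calcium-low at right of each line (orange triangles replicates 1 to 3, green circles replicates 4 to 7). Ikzf2 is lower in calcium-high in 7 of 7 pairs and Id2 higher in 6 of 7; Cebpa is lowest in replicates 1 and 2 in both groups.

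With no filter on low values, 4 of the 10 factors had a positive and 6 a negative log2 fold change of RPKM + 1, with a median of -0.12. Over the 18207 genes above 0 in any library the median was -0.00. Among the 9921 genes that passed the filter it was -0.03 over all libraries, -0.20 in replicates 1 to 3 and 0.11 in replicates 4 to 7.

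**Figure D4:**
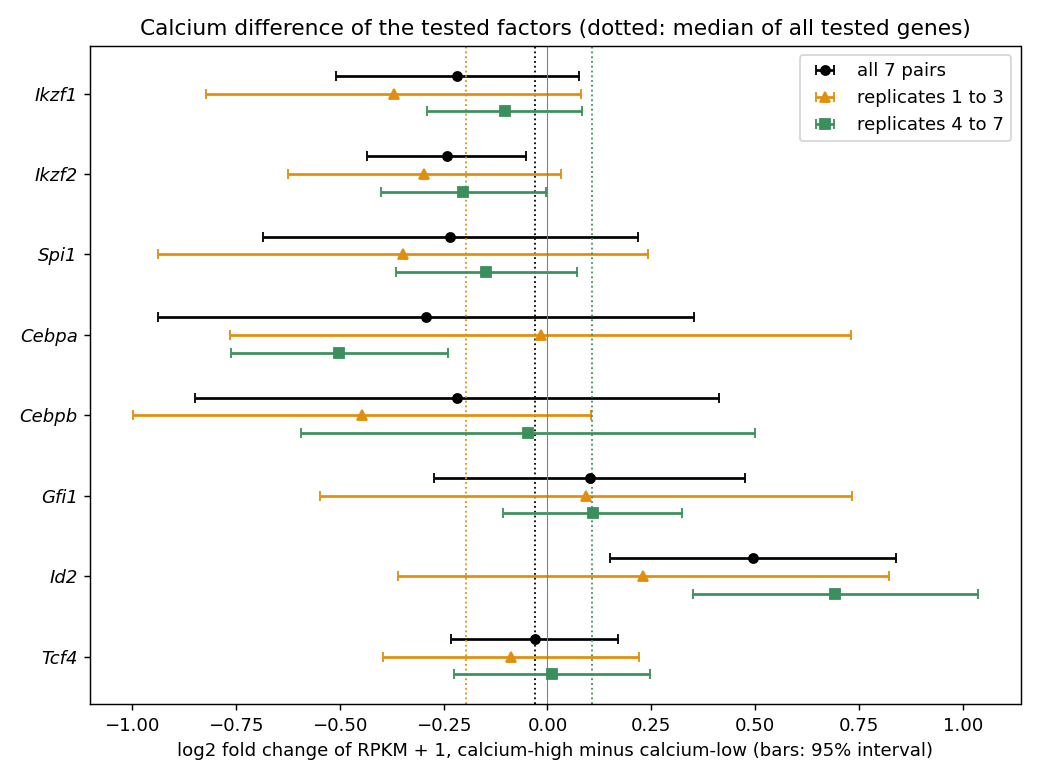
Log2 fold change of RPKM + 1, calcium-high minus calcium-low, for the 8 tested factors, with 95% intervals, over all 7 pairs (black), replicates 1 to 3 (orange) and replicates 4 to 7 (green); dotted lines give the median of all tested genes in the same libraries. Intervals lie clear of 0 in all libraries for Id2 (0.15 to 0.84) and Ikzf2 (-0.44 to -0.05), before adjustment over all genes.

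Levels of the factors were compared across libraries as a description, with Pearson's r of log2(RPKM + 1) over 14 libraries, whose differences in depth and replicate run enter every r. Spi1 and Cebpb varied together (r = 0.83; 0.77 in the 8 libraries of replicates 4 to 7), as did Cebpb and Irf8 (r = 0.79; 0.81 in replicates 4 to 7), whereas Gfi1 and Ikzf1 had r = -0.79 over all libraries and -0.34 in replicates 4 to 7. Among genes averaging at least 5 RPKM, the closest to Spi1 was Fes, a myeloid tyrosine kinase gene (r = 0.98; 0.73 in replicates 4 to 7). The closest to Cebpa was Tgif2 (r = 0.94; 0.93 in replicates 4 to 7) and to Id2 Dpy19l3 (r = 0.86; 0.92 in replicates 4 to 7). For Cebpb the nearest were Mif (r = 0.96; 0.87 in replicates 4 to 7) and the ribosomal protein gene Rps29 (r = 0.96; 0.90). Gfi1 was closest to Jade2 (r = 0.90), with 0.68 without replicate 3 and 0.53 in replicates 4 to 7. Ikzf1 was closest to Ewsr1 (r = 0.95; 0.67 in replicates 4 to 7), Ikzf2 to Aldh9a1 (r = 0.82; 0.67) and Tcf4 to Stk4 (r = 0.82; 0.91).

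Other genes of these pathways were read as 4 lists; with the block 0.433% of all genes were called lower. Of 21 myeloid partner factors 14 were tested, and limma called 0 with or without the block. Log2 fold changes were positive for 4 and negative for 10. Limma-voom called 0 of these factors higher and 1 lower, beside 4.5% and 2.61% of all genes. The 2 with the smallest p under the block were Elf1, an ETS factor, at 10.4 ± 3.57 RPKM in calcium-high HSCs, against 13.2 ± 4.62 RPKM in calcium-low HSCs (limma adjusted p = 0.181 with the block), and Cbfb, the partner of Runx proteins, at 11.4 ± 1.07 and 15.4 ± 4.11 RPKM (adjusted p = 0.200). The 2 most abundant, Myb and Etv6, both needed by HSCs, were at 49.9 ± 11.9 and 45.7 ± 8.27 RPKM in calcium-high HSCs, against 59.5 ± 11.0 and 49.9 ± 7.25 RPKM in calcium-low HSCs.

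Of 22 lymphoid, E and Id protein partners 11 were tested and 0 passed in either limma fit, with 5 positive and 6 negative values. Limma-voom called 2 of the 11 higher and 1 lower, beside 4.5% and 2.61% of all genes. Satb1, a chromatin organiser of lymphoid genes, was at 0.772 ± 0.0968 RPKM in calcium-high HSCs, against 1.62 ± 0.670 RPKM in calcium-low HSCs. Its limma adjusted p was 0.124 with the block, and its limma-voom adjusted p was 0.000277. It passed the filter on low values through calcium-low libraries. Gata3, a T cell and innate lymphoid factor, was at 3.04 ± 1.04 and 2.06 ± 0.460 RPKM in calcium-high and calcium-low HSCs. Its limma adjusted p was 0.203 with the block, and its limma-voom adjusted p was 0.0058. The most abundant were Tcf12, the E protein HEB, at 10.6 ± 0.971 and 11.4 ± 2.26 RPKM, and Bcl11a at 10.5 ± 0.942 and 10.4 ± 0.964 RPKM, in the same order of groups.

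Of 24 myeloid target genes 15 were tested; 0 passed without the block and 1 passed with it. This was Plac8, a gene of early myeloid progenitors, at 3.50 ± 1.97 RPKM in calcium-high, against 7.04 ± 2.68 RPKM in calcium-low HSCs. Its limma adjusted p was 0.0391 with the block and 0.507 without. Of all 24 target genes 15 were highest in calcium-high replicate 5, Plac8 not among them. That library summed to 302.3 RPKM over the list, and calcium-high replicates 6 and 7 to 219.5 and 207.8 RPKM. Calcium-low libraries summed to 108.4 to 162.6 RPKM. The part of other cell types in these sums was not tested. Of 19 lymphoid priming genes 10 were tested, again with 0 without the block and 1 with it. This was Flt3, the receptor that marks multipotent progenitors with lymphoid potential, at 1.73 ± 0.744 RPKM in calcium-high, against 5.01 ± 2.15 RPKM in calcium-low HSCs (limma adjusted p = 0.0364 with the block, 0.152 without). When 1 pair was left out at a time, both genes passed with the block in 1 of 7 fits, the one without pair 3, and the highest adjusted p was 0.168 for each, without pair 7 (limma). With the block and no filter on low values 0 listed genes passed. Limma-voom called 0 genes of these 2 lists higher and 2 of each lower. Plac8 and Flt3 were among them (limma-voom adjusted p = 0.0226 and 0.000233). That fit called 4.5% of all genes higher and 2.61% lower. The median log2 fold changes of the 4 lists were -0.09, -0.02, -0.02 and -0.21 in the order given, against -0.03 over all genes.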

How the data were processed

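RNA of 14 libraries was converted with not-so-random primers and Nextera XT and sequenced on a NextSeq system, per the labels' protocols. The deposited values are RPKM, 1 file per library; the unit was read from the values. The submitters' processing notes name edgeR and the builds GRCm38 and mm10; aligner, counter and annotation are not given in the sources used here. Of 48737 labels per file 23 were not shared as gene names and were left out. Coordinates are from GENCODE (GRCm38) and promoters from RefSeq (GRCm38.p6).

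The factors and lists were chosen with earlier results of these data known. All 10 factors are described; from each list the genes called with the block are named, or else the 2 with the smallest p under the block and the 2 with the highest mean, and for each factor the genes most like it by r. In R 4.3.3, limma 3.58.1 with a trended variance was fitted to log2(RPKM + 1), a scale that understates fold changes at low levels, for 9921 genes that averaged at least 1 RPKM, as calcium-high minus calcium-low, with Benjamini-Hochberg adjustment over all of them. Tables and figures were made with matplotlib 3.10.9, pandas 2.3.3 and numpy 2.4.6 in Python 3.11.15. The design had also allowed for counts and edgeR, which was not run.

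RPKM values were whole multiples of a step per gene: 100% of 9848 genes above 0 in all libraries gave whole reads within 0.02 reads, and 0 of 500 genes with jittered values did. Limma-voom was run on these reads and called 705 genes. Same-numbered libraries deviated together from their group means (correlation 0.384 to 0.715 in all 7 pairs, numbers from the sample titles), though the library most like each in the other group bore the same number for 5 of 14, and the number was also fitted as a block. Other alternatives were scaling, filter, pseudocount, library run and left-out libraries. Cebpa, Cebpb, Cebpd, Gfi1 and Ikzf2 share exon bases with a gene on the other strand, and whether counting used strand is not given.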

Additional observations from a re-analysis of the deposited data

Results flagged for a closer look

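Of 20 groups of 7 libraries checked, 2 for each of the 10 factors, 3 had 1 library far from the other 6. The cutoff is meant to flag about 1 in 20 groups of normally distributed values. The rate for levels like these, some of them close to the limit of counting, was not tested. Irf8 was at 4.77 RPKM in calcium-high replicate 5, a gap to the nearest library of 0.693 of the group's range. Ikzf1 was at 14.7 RPKM in calcium-high replicate 3, with a gap of 0.668 of the range. Cebpd was at 0.385 RPKM in calcium-low replicate 3, with a gap of 0.79 of the range, and rests on 20 reads.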

How the results depend on the processing

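The number of factors called was 0 in the main limma fit, with the replicate block and in each fit that left out 1 library. It was 0 to 1 when 1 pair was left out with the block (Id2, without replicate 3), 1 without both libraries of replicate 3, 2 by limma-voom, 3 by limma-voom with the block, and 2 in replicates 4 to 7 alone, with or without the block. Of the additions chosen after seeing the data, limma-voom on replicates 4 to 7 and limma-voom without calcium-high replicates 5 and 6, each called 3. In replicates 1 to 3 alone limma called 0, and so did limma-voom, another of these additions.

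Of the listed partner and target genes, 0 were called in the main fit and 0 with the replicate block and no filter, which called 0 of all genes (2221 at an unadjusted p under 0.05); 2 with the replicate block or the library run as a term, 2 without replicate 3, 4 with the block and scaling by median of ratios, 8 by limma-voom, 15 with its block and 11 in replicates 4 to 7, or 12 with the block. Limma-voom called 15 on replicates 4 to 7 and 19 without calcium-high replicates 5 and 6. Leaving out 1 library gave 0 to 2, and 1 pair with the block 0 to 5. Replicates 1 to 3 alone gave 0 by limma and 0 by limma-voom.

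Over all genes the count was 0 in the main fit (669 at an unadjusted p under 0.05), 91 with the replicate block, 4 with median-of-ratios scaling, 1 without the filter, 705 by limma-voom, 838 with its block, 808 in replicates 4 to 7 (656 with the block), 51 with the library run as a term, 119 without replicate 3, and 328 with the block and scaling by median of ratios. Limma-voom called 1040 on replicates 4 to 7 and 1965 without calcium-high replicates 5 and 6. Leaving out 1 library gave 0 to 101, and 1 pair with the block 0 to 302. Replicates 1 to 3 alone gave 0 by limma and 0 by limma-voom.

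The direction of Id2, Ikzf2, Cebpa, Cebpb and Spi1 was the same in all 40 alternatives. Leaving out 1 library gave Gfi1 values of -0.0056, without calcium-low replicate 3, to 0.214, and Tcf4 values of -0.0654 to 0.003. Gfi1 also reversed to -0.0024 without calcium-high replicates 5 and 6, and to -0.3248 by limma-voom without them, where Ikzf1 was at 0.0048. Tcf4 reversed in 9 alternatives: 0.0231 by limma-voom with the block, 0.0111 in replicates 4 to 7 with or without the block, 0.003 without calcium-high replicate 5, 0.016 with the block without replicate 5, 0.1779 by limma-voom on replicates 1 to 3, 0.025 without calcium-high replicates 5 and 6, 0.0038 with the block without both libraries of replicates 5 and 6, and 0.2114 by limma-voom without calcium-high replicates 5 and 6. Cebpa passed by limma-voom with the block at an adjusted p of 0.0391. The causes were not tested. The calcium difference between the 2 runs of replicates was called for 0 factors in every fit, and over all genes for 0 without the block, with 12 higher and 153 lower with it; its median over all genes was -0.31 and 0.00 after median-of-ratios scaling. Cebpd rests on 2 to 49 reads in every library.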
